A study of Homo sapiens with 6 samples.

Results

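Myo-inositol is a cyclic sugar alcohol that human cells either import or make from glucose. ISYNA1, the inositol phosphate synthase, turns glucose-6-phosphate into an inositol phosphate in the committed step of synthesis, and IMPA1 and IMPA2, the inositol monophosphatases, remove the phosphate to leave free myo-inositol. The carrier SLC5A3 brings myo-inositol in with sodium and the carrier SLC2A13 brings it in with protons, and CDIPT joins it to CDP-diacylglycerol to give phosphatidylinositol, the parent lipid of the phosphoinositide signals. These 6 genes are described here, out of 16407 in the deposited table. ISYNA1 was selected on its log2 change, which was among the largest rises in this same comparison, so its change is given as a description without a test. The other 5 were added for their place in the pathway, with earlier results of these data known. All 6 passed the filter on low counts, which kept 12548 genes.

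The RNA came from C666-1, an established human nasopharyngeal carcinoma line that carries Epstein-Barr virus, grown for 24 h in either of 2 media. The complete medium held 0.4 mM serine, 0.4 mM glycine, 4.5 g/L glucose and 10% dialyzed serum in MEM that lacked the non-essential amino acids. The other medium was made the same way but held neither serine nor glycine. There were 3 libraries per medium. The labels number them 1 to 3 but do not say whether they were separate cultures, so the p-values measure a spread that may be technical. The libraries held 16612196 to 17030355 estimated counts. The libraries numbered 1 stood apart from their replicates over all genes: in complete medium the chi-square per gene was 12.97 and 8.68 between library 1 and the others and 4.004 between libraries 2 and 3, and without serine and glycine it was 16.2 and 18.3 against 2.68. Of 8 epithelial markers, KRT8 and KRT18 made up most of a summed level of 1208 to 1354 CPM (counts scaled to a common library size) in complete medium and 1093 to 1211 CPM without serine and glycine, while CDH1, KRT5 and KRT14 were under 1 CPM. Of 6 macrophage and leukocyte markers in the table, CD14 averaged 0.460 and 1.22 CPM, PTPRC, CSF1R, ITGAM and LYZ were under 1 CPM in both media, and CD68, a lysosomal protein that is not restricted to macrophages, made up most of a sum of 50.9 to 60.8 CPM against 37.5 to 40.8 CPM. The 5 fibroblast markers in the table summed to 43.8 to 53.03 CPM against 40.6 to 51.3 CPM, most of it COL3A1 and COL1A1, and the 3 endothelial markers to 1.14 to 2.21 CPM against 1.59 to 2.86 CPM. In RNA from a whole culture, fewer cells expressing a gene and less RNA per cell cannot be told apart.

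The starts of ISYNA1 and SLC5A3 are shown because the largest changes among the 6 genes were theirs, and because the window of SLC5A3 is also that of a neighbouring gene. Each sequence runs from 250 bases before to 50 bases after the annotated start, is 300 bases long, and is taken from RefSeq on GRCh38.p14. Capitals mark the GC box GGGCGG on either strand, where copies may overlap by 1 base. The windows are chr19:18438084-18438383, minus strand, for ISYNA1 and chr21:34073328-34073627, plus strand, for SLC5A3.
ISYNA1: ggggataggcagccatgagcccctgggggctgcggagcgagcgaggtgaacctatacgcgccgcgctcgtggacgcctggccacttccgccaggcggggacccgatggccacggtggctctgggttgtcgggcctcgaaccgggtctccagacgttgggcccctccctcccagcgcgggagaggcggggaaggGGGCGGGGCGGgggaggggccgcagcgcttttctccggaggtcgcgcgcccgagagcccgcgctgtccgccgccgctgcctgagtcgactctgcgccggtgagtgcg
SLC5A3: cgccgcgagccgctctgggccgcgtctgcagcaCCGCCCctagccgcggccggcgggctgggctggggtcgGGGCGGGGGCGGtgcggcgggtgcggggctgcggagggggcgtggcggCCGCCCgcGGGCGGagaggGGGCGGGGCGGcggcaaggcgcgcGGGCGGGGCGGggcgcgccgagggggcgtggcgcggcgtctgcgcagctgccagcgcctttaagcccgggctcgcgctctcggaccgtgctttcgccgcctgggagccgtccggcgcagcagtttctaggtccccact
The ISYNA1 window is 74.7% G or C and holds 2 GC boxes, and the SLC5A3 window is 82.0% G or C and holds 9. RefSeq gives ISYNA1 a second window at chr19:18437260-18437559, not shown, which is also 74.7% G or C and holds 6 GC boxes. Across 34943 promoter windows of this length the median was 58.7%, and 44.9% held at least 1 GC box. Neither of the windows shown holds the CCAAT box, the TATA box letters TATAAA, the E-box CACGTG or the NFAT core letters TGGAAA on either strand, which were found in 34.6%, 11.6%, 7.23% and 20.8% of the windows. A match describes the letters and is not a shown binding site. RefSeq windows were found for 4 of the 6 genes.

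The 6 genes differed widely in level per length, given in TPM (a length-scaled share of all transcripts). IMPA2 was the most abundant at 183.5 ± 19.6 TPM (SD over all 6 libraries), followed by CDIPT at 101.1 ± 4.63, SLC5A3 at 50.7 ± 17.04, IMPA1 at 27.0 ± 1.09, ISYNA1 at 8.13 ± 3.03 and SLC2A13 at 1.22 ± 0.160 TPM. For each of the 5 neighbouring pairs in this order, the lowest library of the upper gene lay above the highest library of the lower gene, so the order held in every library. The synthase was thus below the phosphatases that act after it: in complete medium the TPM of IMPA1 and IMPA2 together was 29.02, 51.5 and 48.7 times that of ISYNA1, and without serine and glycine 17.9, 19.2 and 17.9 times. SLC5A3 was the more abundant carrier, at 27.2 to 41.8 times the TPM of SLC2A13 in complete medium and 40.4 to 56.9 times without serine and glycine. These ratios of the carriers overlapped between the media.

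**Figure D1:**
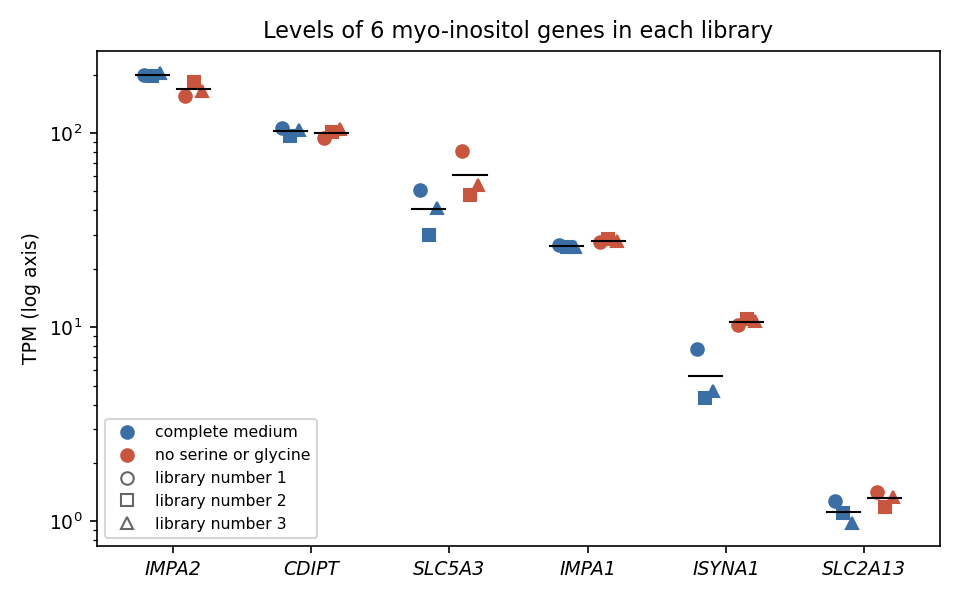
TPM of the 6 genes in each library, on a log axis, with complete medium in blue, medium without serine and glycine in red, and a line at the mean of 3 libraries. Ranges of neighbouring genes do not overlap, and the libraries of ISYNA1 lie between 4.32 and 11.01 TPM.

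Without serine and glycine ISYNA1 was at 1.84 times its level in complete medium. Its gene lies on chromosome 19 at 18434388 to 18438301 of GRCh38, minus strand, and its longest coding transcript has 11 exons. The 3 libraries of complete medium had 7.89, 4.66 and 4.98 CPM, from 132, 77 and 83 estimated counts. The 3 without serine and glycine had 9.91, 11.2 and 11.1 CPM, from 170, 188 and 188 estimated counts. All 3 were above every library of complete medium, and library 1 of complete medium was the nearest of that group. The means were 5.84 ± 1.78 and 10.7 ± 0.721 CPM (SD, n = 3), a log2 change of 0.88. Between libraries of the same number the log2 difference was 0.31, 1.18 and 1.08, the smallest in the pair numbered 1.

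ISYNA1 ranked 9th by log2 change among 320 called rises with at least 5 CPM in the higher medium. This rank restates the choice of ISYNA1 for its large rise and is no test of it. AOC2, an amine oxidase, stood just above it with a log2 change of 0.92, from 10.53 ± 3.35 to 19.9 ± 2.61 CPM. FGF11, a fibroblast growth factor family member that stays inside the cell, stood just below with 0.82, from 5.47 ± 1.05 to 9.64 ± 1.00 CPM. On the other strand ISYNA1 overlaps SSBP4, a gene for a single-stranded DNA binding protein. Of 3284 exonic bases of ISYNA1 in GENCODE 29, 175 (5.33%) are also exonic in SSBP4, and the labels do not say whether strand was kept. SSBP4 was at 28.3 to 31.5 CPM in complete medium and 31.0 to 34.8 CPM without serine and glycine (log2 change 0.12, edgeR adjusted p = 0.347).

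Genes whose log2 CPM followed ISYNA1 most closely over the 6 libraries were found by Pearson's r among 10583 genes with a mean of at least 5 CPM. ABCG1, a sterol exporter, had r = 0.997 and went from 22.3 ± 3.42 to 32.4 ± 1.72 CPM. MGAT4B, an enzyme that branches N-glycans, had r = 0.996. DERPC, CARD8, an inflammasome sensor, and WHAMM, which promotes actin assembly on membranes, had r of 0.994, 0.994 and 0.992. ABCG1 shared the shape seen in ISYNA1, with library 1 of complete medium at 26.2 CPM against 19.8 and 20.9 in the other libraries of that medium. These values are a ranking over 6 libraries that hold the same medium difference and carry no test. Among the other 5 members and ISYNA1, r was 0.74 for SLC5A3, 0.65 for SLC2A13, 0.41 for IMPA1, -0.26 for CDIPT and -0.75 for IMPA2.

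The remaining members gave smaller and mixed differences. By edgeR's quasi-likelihood test 0 of these 5 had an adjusted p under 0.05, against 6.95% of all tested genes called (872 of 12548), or 2.73% higher (343) and 4.22% lower (529). Without library 2 or 3 of either medium edgeR called 0 of all genes, with 2171 to 2830 at an unadjusted p under 0.05 and 230 to 563 called by DESeq2, whereas it called 1322 without complete library 1 and 1752 without deprived library 1. At an unadjusted p under 0.05 in the main fit there were 2 of the 5, IMPA2 and SLC5A3, beside 3425 of all 12548 tested genes. DESeq2 called 1 of the 5, IMPA2, beside 1198 of all tested genes. Limma voom called 0 of the 5, beside 798 of all tested genes. With the shared library number as a block, 2 were called, IMPA2 lower and SLC5A3 higher, while that fit called 24.3% of all genes (3044), 11.1% higher and 13.2% lower. Libraries of the media did not overlap for 2 of these 5, IMPA2 and SLC2A13, against 32.6% of all tested genes (16.1% higher and 16.4% lower).

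**Figure D2:**
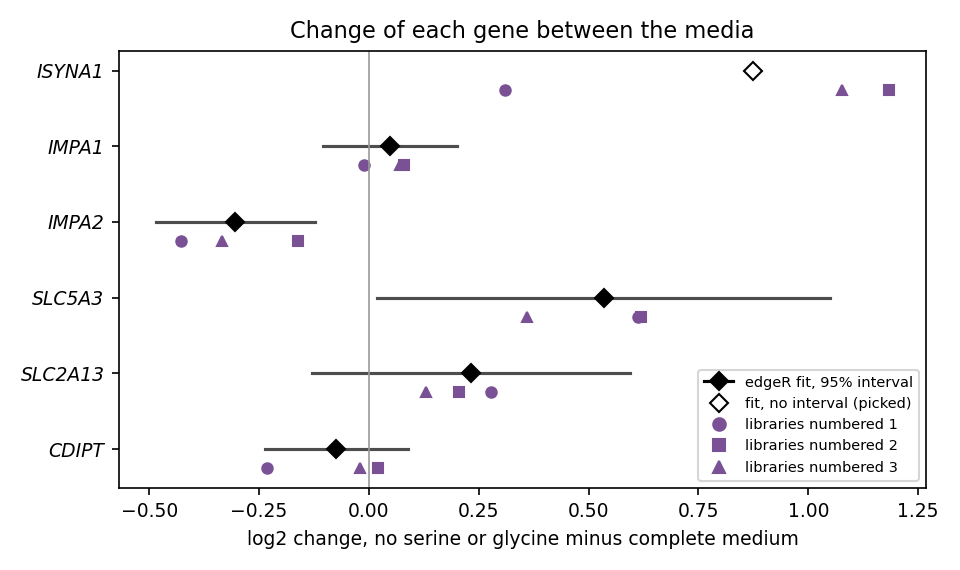
Log2 change of each gene, as the medium lacking serine and glycine minus the complete one. Black diamonds are the edgeR estimates with their 95% intervals, ISYNA1 is open and has no interval because it was picked for its rise, and purple symbols below each line are the differences between libraries of the same number. The intervals of IMPA1, SLC2A13 and CDIPT cross 0.

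The phosphatases that release free myo-inositol differed from each other. IMPA2 (chromosome 18, 11981025 to 12030883, plus strand) was at 119.3, 124.5 and 126.4 CPM in complete medium and at 88.5, 111.2 and 100.2 CPM without serine and glycine. All 3 libraries of the deprived medium were below every library of complete medium, from 123.4 ± 3.69 to 99.96 ± 11.3 CPM. The log2 change was -0.30 (SE 0.082, 95% interval -0.49 to -0.12, edgeR adjusted p = 0.0515), which missed the threshold. It passed with the library number as a block (adjusted p = 0.00606), by DESeq2 (0.0231) and with no filter on low counts (0.0359). It also passed in fits that dropped deprived library 1 alone (0.0417) or the library numbered 1 of each medium (0.00582). In that order these fits called 3044, 1198, 1083, 1752 and 3652 of all genes, where the main fit called 872. Each tested 12548 genes, except the fit with no filter, which tested 16382. Over the 6 fits that each left out 1 library the adjusted p ran from 0.0417 to 0.188.

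IMPA1, the lithium-sensitive phosphatase (chromosome 8, 81657961 to 81686693, minus strand), was at 41.8, 43.1 and 42.4 CPM in complete medium. Without serine and glycine it was at 41.5, 45.6 and 44.6 CPM, so the media overlapped. Its log2 change was 0.05 with a 95% interval of -0.11 to 0.20 (adjusted p = 0.690). IMPA2 made up 88.2, 88.4 and 88.7% of the summed TPM of both phosphatases in complete medium and 85.0, 86.5 and 85.6% without serine and glycine. This share was lower in all 3 deprived libraries than in any library of complete medium, and IMPA2 remained the main transcript of the pair in each library.

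SLC5A3, the sodium-coupled carrier, had the largest difference after ISYNA1, with a wide spread inside each medium. It was at 291.9, 182.2 and 245.3 CPM in complete medium and at 446.6, 280.3 and 314.8 CPM without serine and glycine. The media overlapped, because library 1 of complete medium lay above library 2 of the deprived medium. Within each number the deprived library was higher, by 0.61, 0.62 and 0.36 on the log2 scale. The means were 239.8 ± 55.0 and 347.2 ± 87.8 CPM, a log2 change of 0.53 (SE 0.218, 95% interval 0.02 to 1.05). The edgeR adjusted p was 0.171 without the library number in the fit and 0.000947 with it as a block. The log2 change was 0.31 without library 1 of the deprived medium, a fit that called 1752 of all genes but not SLC5A3. It was 0.37 without library 2 of complete medium. That fit called 0 of all genes, so its lack of a call is not particular to SLC5A3.

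SLC5A3 is nested in MRPS6, which encodes a protein of the small mitochondrial ribosome subunit, on the plus strand of chromosome 21. RefSeq gives both genes the same start, 34073578, so the sequence shown above for SLC5A3 is the start of both. In GENCODE 29, 176 exonic bases at the start are common to both coding transcripts, which is 1.52% of the 11576 exonic bases of SLC5A3 and 17.8% of the 990 of MRPS6, and the other 11400 bases of SLC5A3 lie inside an intron of MRPS6. Reads from the shared exon fit both genes, and the deposited counts are estimates. MRPS6 was at 182.2, 109.6 and 129.8 CPM in complete medium and at 223.6, 137.8 and 147.3 CPM without serine and glycine, with the same library high and the same library low as for SLC5A3 in each medium. The r of their log2 CPM over the 6 libraries was 0.92. MRPS6 had a log2 change of 0.27 that was not called (adjusted p = 0.523), and the block called it (0.00521).

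**Figure D3:**
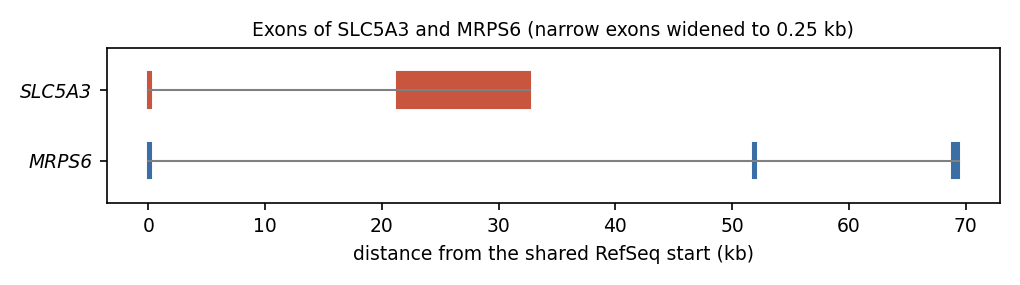
Exons (boxes) of the coding transcripts of SLC5A3 and MRPS6 along the distance in kb from their shared RefSeq start, with exons narrower than 0.25 kb widened for display. The first exon is common to both, and the long second exon of SLC5A3 lies within an intron of MRPS6.

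The ratio of SLC5A3 to MRPS6 CPM was 1.602, 1.66 and 1.89 in complete medium and 1.997, 2.03 and 2.14 without serine and glycine. Here the media did not overlap, from 1.72 ± 0.151 to 2.06 ± 0.0727 (SD, n = 3, two-sided exact permutation p = 0.1, the smallest that 3 against 3 libraries allow). Both genes were thus higher in each deprived library than in its same-numbered partner, and SLC5A3 by more than MRPS6.

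SLC5A3 belongs to a set of genes that NFAT5, the transcription factor of the response to high salt, is known to raise so that cells gather small osmolytes. Of 9 genes of this osmotic list, 0 were called by edgeR, beside 6.95% of all tested genes. An unadjusted p under 0.05 was found for 1 of them (SLC5A3), beside 3425 of all 12548 tested genes. The block called 3 of the 9 higher and 0 lower, where it called 11.1% and 13.2% of all tested genes. These 9 genes had a median log2 change of 0.19, against -0.0007 for all tested genes. NFAT5 itself was at 220.0, 221.3 and 223.8 CPM in complete medium and at 214.4, 200.9 and 197.7 CPM without serine and glycine (log2 change -0.12, adjusted p = 0.218). HSPA1A, a heat shock chaperone, had a log2 change of 0.21 (adjusted p = 0.414).

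The libraries numbered 1, which stood apart over all genes, also did so for other osmolyte genes, singled out after their values were seen. AKR1B1, the aldose reductase that makes sorbitol, was at 6755 CPM in library 1 of complete medium against 2938 and 3299 in the others, and at 7762 CPM in library 1 of the deprived medium against 3660 and 3441. SLC6A12, the carrier of betaine, was at 84.6, 24.9 and 43.5 CPM in complete medium and at 133.0, 51.7 and 59.9 CPM without serine and glycine. For both genes the gap between library 1 and its replicates was wider than the difference between the media. SLC6A6, the taurine carrier, went the other way, at 95.1 CPM in library 1 of complete medium against 128.1 and 124.9, and at 80.9 CPM in library 1 of the deprived medium against 123.1 and 115.6.

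The spread inside a medium, as the SD of log2 CPM pooled over both, was 0.35 for SLC5A3, 0.37 for MRPS6, 0.80 for SLC6A12 and 0.28 for ISYNA1, against a median of 0.11 for all tested genes. IMPA1, SLC2A13 and CDIPT had 0.05, 0.08 and 0.09, and IMPA2 0.12. A smaller SD than that of SLC5A3 was found in 95.3% of tested genes. The part of the library number in the differences of SLC5A3 was not tested beyond the block.

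**Figure D4:**
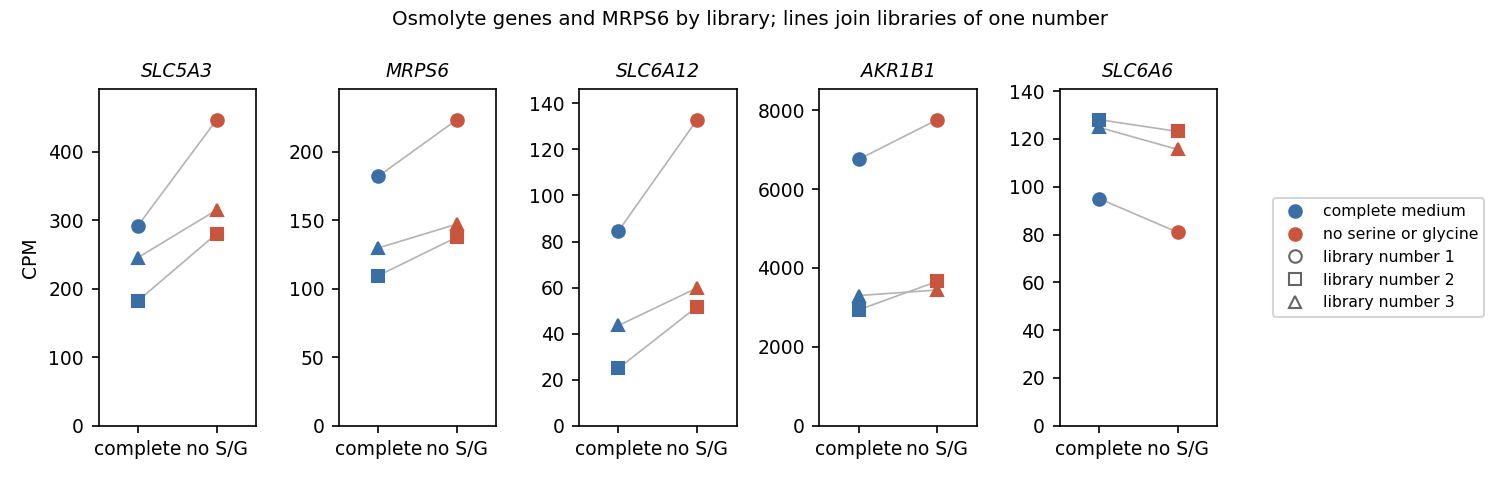
CPM of SLC5A3, MRPS6 and the osmolyte genes SLC6A12, AKR1B1 and SLC6A6 in each library, with lines joining libraries of the same number and each axis starting at 0. Library 1 (circles) is the highest in both media for the first 4 genes and the lowest for SLC6A6.

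SLC2A13, the proton-coupled carrier (chromosome 12, 39755021 to 40106089, minus strand), was the least abundant member, with 54 to 69 estimated counts per library. It was at 3.23, 3.51 and 3.24 CPM in complete medium and at 4.02, 4.12 and 3.59 CPM without serine and glycine. Every deprived library was above every library of complete medium, by a narrow margin. The log2 change was 0.23 with a 95% interval of -0.13 to 0.60 (adjusted p = 0.383), and the block did not call it (0.312). At this count the interval spans a small fall and a rise of about that of SLC5A3. SLC5A11, a further sodium-coupled myo-inositol carrier, had only 3 to 5 estimated counts per library and was not tested. MIOX, which oxidises myo-inositol in its breakdown, was at 1.04 ± 0.758 and 2.43 ± 1.42 CPM (log2 change 1.21, SE 0.641, adjusted p = 0.262), and its media overlapped.

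CDIPT, the phosphatidylinositol synthase (chromosome 16, 29858357 to 29863736, minus strand), was at 83.8, 80.6 and 85.0 CPM in complete medium and at 71.3, 81.7 and 83.8 CPM without serine and glycine. The media overlapped, and library 1 of the deprived medium was the lowest of the 6. The log2 change was -0.07 with a 95% interval of -0.24 to 0.09 (adjusted p = 0.543). It was 0.0033 without both libraries numbered 1.

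Around the members, 86 other genes of inositol and phosphoinositide metabolism were tested, and 6 of them were called, 1 higher and 5 lower, or 6.98% against the 6.95% of all genes. Their median log2 change was -0.02. With the block 17 of the 86 were called, 8 higher and 9 lower, where the block called 24.3% of all tested genes, 11.1% higher and 13.2% lower. Without library 2 or 3 of complete medium, or library 2 or 3 of the deprived medium, edgeR called 0 of them each time, with 11, 15, 18 and 15 at an unadjusted p under 0.05. DESeq2 called 0, 5, 4 and 2 in those fits and limma voom 0 in each. Limma on log2(FPKM + 1) called 1. Without both libraries numbered 1 edgeR called 20 of the 86, beside 3652 of all 12548 tested genes.

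Of the 6 called genes, 4 were on a list drawn up around glucose-6-phosphate, the substrate of ISYNA1. Of 8 genes on this list 4 were lower and 0 higher, beside 4.22% and 2.73% of all tested genes, with a median log2 change of -0.30. G6PC3, a phosphatase of the glucose-6-phosphatase family, fell from 30.3 ± 2.41 to 21.7 ± 0.378 CPM (log2 change -0.48, SE 0.084, adjusted p = 0.0221). GPI, which turns glucose-6-phosphate into fructose-6-phosphate, fell from 384.8 ± 37.9 to 287.1 ± 30.9 CPM (-0.42, SE 0.096, adjusted p = 0.0337). PGM2, of the phosphoglucomutase family, fell from 34.7 ± 4.91 to 25.6 ± 0.642 CPM (-0.44, adjusted p = 0.0367). PGM1, of the same family and also on the list, was not called (-0.06, edgeR adjusted p = 0.515). HK2, a hexokinase that makes glucose-6-phosphate, completed the 4 and fell from 96.7 ± 17.1 to 71.1 ± 2.16 CPM (-0.44, adjusted p = 0.0422). ISYNA1 was picked for its rise, and these 4 genes are named because they were called lower in the same comparison. Their opposite directions thus follow from the choice and are no test of a link. No measurement of glucose-6-phosphate itself was used here.

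At the lipid end, CDS2 and PI4K2B were the called genes. CDS2, a synthase of the CDP-diacylglycerol that CDIPT uses, rose from 70.9 ± 3.93 to 90.5 ± 7.51 CPM (log2 change 0.35, SE 0.076, adjusted p = 0.0303), and its 3 deprived libraries, at 84.5, 88.2 and 99.0 CPM, were above the 72.5, 66.4 and 73.7 CPM of complete medium. Its paralog CDS1, at 4.59 ± 0.295 and 3.06 ± 0.257 CPM, was not called at a log2 change of -0.58 (adjusted p = 0.0570), and the block called it (0.0238). By TPM CDS2 was the more abundant of these synthases in every library, at 13.9 to 21.6 against 1.37 to 2.27 TPM. In the list of phosphatidylinositol synthesis and transfer 1 of 14 was higher and 0 lower. PI4K2B, which makes phosphatidylinositol 4-phosphate, fell from 40.2 ± 3.28 to 30.4 ± 2.34 CPM (-0.40, adjusted p = 0.0320), the 1 called of 19 phosphatidylinositol kinases.

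None of the 23 inositol phosphatases, 10 inositol phosphate kinases, or 11 phospholipases C and IP3 receptors tested by edgeR was called, where 1, 3 and 2 had an unadjusted p under 0.05 and the block called 1, 2 and 3. Of all 12548 tested genes 3425 had an unadjusted p under 0.05, and the block called 24.3%. MTMR3, a phosphoinositide phosphatase, was at 0.20 on the log2 scale (adjusted p = 0.0797, block 0.0354). IP6K1, which makes inositol pyrophosphates, was at 0.27 (adjusted p = 0.0516, block 0.0109), and its paralog IP6K2 at 0.19 (adjusted p = 0.119, block 0.0433). PLCB4, a phospholipase C, was at -0.49 (adjusted p = 0.0543, block 0.0169). Of the 11 phospholipases C and receptors 1 had a positive log2 change, beside 49.8% of all tested genes. Their median was -0.12, against -0.0007 for all tested genes, whose median absolute log2 change was 0.14.

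**Figure D5:**
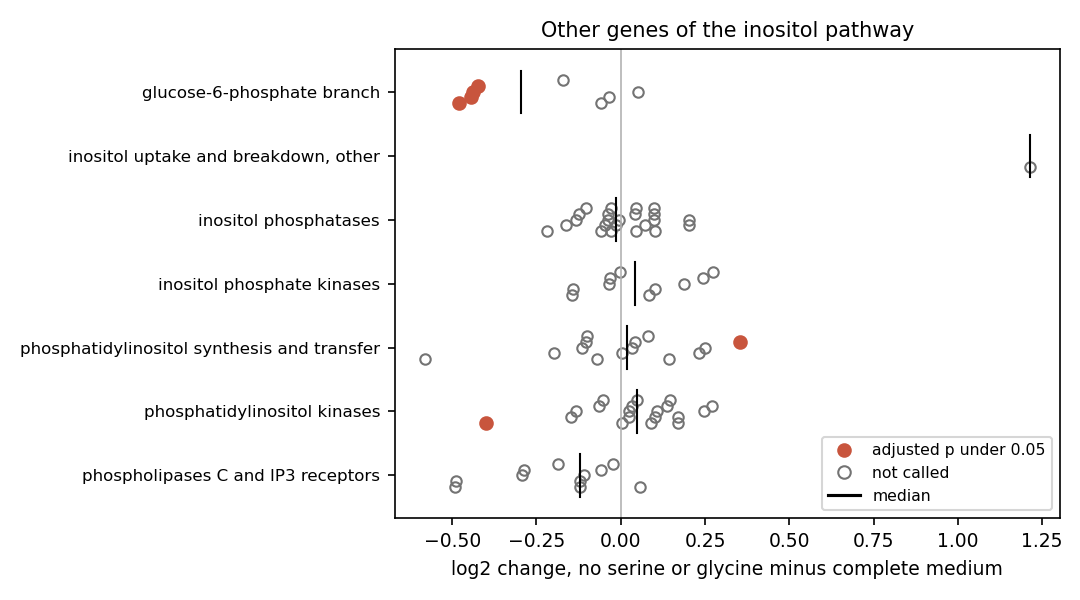
Log2 change without serine and glycine of the 86 other tested genes of the pathway, by list, with red points for genes at an adjusted p under 0.05, open points for the others and a black line at each list's median. The 4 red points of the glucose-6-phosphate list lie between -0.48 and -0.42.

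ISYNA1 has been described as a gene that p53 induces, and it stood higher in the same libraries as several p53 targets. Of 26 tested targets 10 were higher and 0 lower, beside 2.73% higher and 4.22% lower of all tested genes, and the rise of this list was already known from these data. With the block 12 were higher and 1 was lower, SESN2, a stress-induced sestrin, beside 11.1% and 13.2% of all tested genes. ZMAT3, an RNA-binding protein, rose by 0.64 on the log2 scale (adjusted p = 0.0217), and CDKN1A, an inhibitor of cyclin-dependent kinases, by 0.50 (adjusted p = 0.0246). TP53INP1, a p53-induced stress protein, had 7 to 8 estimated counts per library in complete medium and 23 to 30 without serine and glycine. It thus passed the filter on low counts only through the medium in which it was high. TP53INP1 is among the 10 targets called higher, so that count includes a gene tested only because it was high in that medium. Whether p53 has a part in the level of ISYNA1 was not tested.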

How the data were processed

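Whole-culture mRNA libraries of 6 samples were analysed. RSEM 1.3.1, Bowtie2 2.3.4.3 and the build GRCh38 are named, with no role or order, per the submitters' processing notes. The sources used here do not give the gene models. Per gene, the authors deposited expected counts, of which 15.2 to 16.0% per library are not whole numbers, FPKM values scaled by gene length and depth, and TPM values that sum to 1000000 per library. Estimated division of reads makes overlapping genes and close paralogs uncertain.

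Rounded expected counts went into edgeR 4.0.16 under R 4.3.3 (filterByExpr with a minimum count of 10 and total of 15, TMM scaling, robust quasi-likelihood fit with medium as the term, two-sided p adjusted by Benjamini-Hochberg over 12548 genes, call at 0.05). CPM use TMM-scaled library sizes. SE is the log2 change divided by the root of the F statistic, so intervals are unadjusted and not independent of the p. Log2 CPM for spreads and correlations add 0.5. DESeq2 1.42.0, limma 3.58.1, other filters and scalings, a replicate block and left-out libraries were alternatives. Libraries of the same medium differed by more than sampling noise (chi-square of their counts per gene, 2.68 to 18.3 over the 6 pairs).

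Deviations from the group means correlated at 0.395, 0.185 and 0.256 between same-numbered libraries, all above the minimum of 0.1 set for pairing, and at -0.343 to 0.202 between others. The pairing thus comes from this correlation and not from the labels. The highest value between others, 0.202, was above the 0.185 of the libraries numbered 2. The block is therefore given as an alternative to the main fit, and a call that it changes rests on this pairing.

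On simulated counts for this comparison (12548 genes) edgeR found 77 of 100 genes given a 1.5-fold change and 98 of 100 given a 2-fold change, and 13 of its 188 calls were false. Changes were given only to genes with a mean above 5 CPM, and libraries were drawn independently with no effect of the library number. These rates therefore do not cover SLC2A13, which was below that level, or the way the libraries numbered 1 stood apart. Positions are from GENCODE 29 or RefSeq on GRCh38. The members and lists were chosen with earlier results of these data known. Named genes are the members, MRPS6, up to 3 genes per list by smallest adjusted p, the neighbours of ISYNA1 by log2 change, and the 5 genes most correlated with it, and others are named where a result turns on them.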

Additional observations from a re-analysis of the deposited data

How the results depend on the processing

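The order of the 6 levels was the same by FPKM. ISYNA1 was higher without serine and glycine in every alternative run, with a log2 change of 0.74 to 1.15 when 1 library was left out and 1.21 without both libraries numbered 1. IMPA1 and SLC2A13 were not called and kept their sign in the alternatives run, at 0.02 to 0.09 and 0.20 to 0.29 with 1 library left out. CDIPT reversed to 0.0033 without both libraries numbered 1, and was at -0.12 to -0.0062 with 1 left out. IMPA2 was called at -0.31 with the replicate block, -0.30 by DESeq2, -0.30 with no filter and -0.24 without both libraries numbered 1. In that order these fits called 3044, 1198, 1083 and 3652 of all genes, where the main fit called 872. The log2 change of IMPA2 ranged from -0.39 to -0.22 with 1 left out. SLC5A3 was called at 0.53 with the replicate block only, and ranged from 0.31 to 0.70.

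Over all genes 872 were called, against 340 and 356 by limma on log2 FPKM with 1 or 0.1 added, 117 on log2(TPM + 1), 3044 with the replicate block (all 872 among them with the same sign), 3652 without both libraries numbered 1, and 0 to 1752 with 1 library left out. Calls of 0 came without library 2 or 3 of either medium, where edgeR had 2171 to 2830 genes at an unadjusted p under 0.05, DESeq2 called 230 to 563 and limma voom 0. Of the pathway genes 6 were called, against 1 in each of the limma fits on FPKM or TPM, 17 with the block, 20 without both libraries numbered 1 and 0 to 12 with 1 left out. The cause of these shifts was not tested. Fits with fewer libraries or a block have fewer degrees of freedom, and among them some called fewer genes than 872 and others more. Low counts limit the precision for SLC2A13, SLC5A11 and MIOX.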
